A study of Mus musculus with 113 samples.

Results

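The DNA replication machinery was followed through 46 genes, picked by symbol: the subunits of the origin recognition complex, the factors that load and hold back the replicative helicase, the helicase itself, the factors that fire it, the replicative polymerases with primase, the sliding clamp and its loader, the single-strand binding protein RPA, the enzymes that finish lagging strands, and ribonucleotide reductase. The rule used no measured value. All 46 were present in each of 4 gene tables, among 13541 genes for SFEB cell populations, 13738 for adherent monoculture, 23107 for the E14 samples and 11449 for single cells. The series held 113 samples of mouse embryonic stem (ES) cells taken through neural differentiation. R1 ES cells, wild type, were differentiated as SFEB, a serum-free suspension culture of embryoid body-like aggregates, and sampled as a first series of 14 populations between 0 and 142 h and a parallel series of 8 populations between 0 and 216 h, with 8 single cells at each of those 8 parallel times. A further 15 populations came from R1 cells grown as an adherent layer on gelatin in N2B27 medium, from 0 to 216 h. In both protocols cells were taken off and replated on coated dishes at day 6, so only the 216 h samples lie clearly after that step. Replating and time cannot be told apart there. The remaining 12 samples were E14 ES cells, either wild type or Fyn-KO, at days 0 and 4 of neural induction with 3 samples each. Fyn-KO is 1 clone with a CRISPR deletion that takes the start codon of Fyn, a Src-family tyrosine kinase.

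A cell copies its genome once per division. Before DNA synthesis begins, the origin recognition complex (Orc1 to Orc6), Cdc6 and Cdt1 load the ring-shaped helicase Mcm2 to Mcm7 on chromatin, and geminin (Gmnn) binds Cdt1 to prevent a repeat. The kinase Cdc7 with its activator Dbf4, then Cdc45, the GINS complex and Mcm10, turn the loaded ring into an active helicase. Polymerase alpha with primase starts each strand, polymerases delta and epsilon extend it on the clamp Pcna, which the Rfc complex loads, RPA covers the exposed single strand, and Fen1 and Lig1 trim and seal the lagging strand. Rrm1 and Rrm2 make the deoxynucleotides. Mouse ES cells divide fast with a short gap before DNA synthesis, and that gap is known to lengthen as neural progenitors form. Many of these genes are known targets of E2F transcription factors, and many promoters of cell cycle genes carry CCAAT boxes, which bind NF-Y.

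Promoter sequence was at hand for 38 of the 46 genes, taken from RefSeq annotation of GRCm38.p6. The 250 bases before each start were searched on both strands for the E2F motif in 4 spellings (TTTCGCGC, TTTGGCGC, TTTCCCGC and TTTGCCGC) and for CCAAT. Matches of TTTCGCGC and TTTGGCGC on opposite strands can share bases, and they do in Mcm5 and Mcm6. An E2F motif was found for 9 of the 38 genes, 23.7%, against 583 of 27025 genes in the annotation, 2.16%. CCAAT was found for 24 of them, 63.2%, against 37.5% of all genes. Related lists had such shares as well. Of 27 further replication genes, 25.9% had an E2F motif and 55.6% CCAAT. Of 17 mitosis genes, 5.88% had an E2F motif and 82.4% CCAAT. By spelling, TTTCGCGC was found in 4 genes of the machinery, TTTCCCGC in 4, TTTGGCGC in 3 and TTTGCCGC in 0. The stretches below hold the last 160 bases before the start, 5′ to 3′ on the strand of the gene, with the motif letters in capitals on whichever strand they matched. The first 5 belong to the genes that were lower in every population comparison of late with early cells described further on, and the last 2 to the genes that were higher late in both R1 protocols.
Orc1, chr4:108579294-108579453 on the plus strand: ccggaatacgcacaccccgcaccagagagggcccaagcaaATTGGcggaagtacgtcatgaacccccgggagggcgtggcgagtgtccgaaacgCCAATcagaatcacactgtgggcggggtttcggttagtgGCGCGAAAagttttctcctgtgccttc
Cdt1, chr8:122567855-122568014 on the plus strand: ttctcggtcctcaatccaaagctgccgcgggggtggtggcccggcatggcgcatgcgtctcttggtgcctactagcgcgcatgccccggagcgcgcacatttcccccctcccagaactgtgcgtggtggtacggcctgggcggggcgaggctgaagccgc
Mcm5, chr8:75109349-75109508 on the plus strand: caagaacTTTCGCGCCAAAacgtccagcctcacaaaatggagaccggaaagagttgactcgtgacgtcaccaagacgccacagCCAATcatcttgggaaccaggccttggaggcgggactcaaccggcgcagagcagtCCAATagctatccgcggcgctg
Mcm10, chr2:5012792-5012951 on the minus strand: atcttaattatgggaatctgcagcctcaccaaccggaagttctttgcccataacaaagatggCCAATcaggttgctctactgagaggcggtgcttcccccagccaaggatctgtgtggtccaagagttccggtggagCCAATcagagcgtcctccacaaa
Rpa1, chr11:75348384-75348543 on the minus strand: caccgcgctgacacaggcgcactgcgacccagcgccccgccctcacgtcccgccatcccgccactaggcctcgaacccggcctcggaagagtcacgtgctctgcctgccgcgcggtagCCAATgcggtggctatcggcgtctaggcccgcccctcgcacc
Rfc3, chr5:151651209-151651368 on the minus strand: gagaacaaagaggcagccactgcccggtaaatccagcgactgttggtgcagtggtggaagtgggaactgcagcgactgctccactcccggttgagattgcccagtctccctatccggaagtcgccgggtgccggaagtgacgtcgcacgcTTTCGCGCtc
Rrm1, chr7:102441535-102441694 on the plus strand: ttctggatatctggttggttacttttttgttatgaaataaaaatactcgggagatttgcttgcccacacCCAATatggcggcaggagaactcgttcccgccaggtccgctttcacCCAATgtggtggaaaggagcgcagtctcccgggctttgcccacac

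Orc1 held both kinds of motif, with an inverted E2F match 27 to 20 bases before its start. Mcm5 had 2 overlapping E2F matches at 153 to 142 bases before the start and 2 CCAAT boxes nearer to it. Rfc3, which moved the other way in the data, had its E2F match 10 to 3 bases before the start. Cdt1 had neither motif in these bases. Among the genes with a promoter sequence, an E2F motif was found in 3 of 13 that were lower late in SFEB populations, 1 of 6 that were higher and 5 of 19 that were not called. CCAAT was found in 10 of 13 lower, 4 of 6 higher and 10 of 19 not called. By the late calls in adherent culture, CCAAT was found in 12 of 21 lower, 2 of 2 higher and 10 of 15 not called. These splits were not tested.

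Population values were FPKM, fragments scaled by transcript length and library total, so levels of different genes can be set side by side. Read totals were not part of the tables. The paper gives only a minimum number of reads per library, where it describes the single-cell experiment, so depth per sample is unknown. Genes above 0 numbered 13369 to 13538 per SFEB population, 13608 to 13676 per adherent sample, 15125 to 16474 per E14 sample and 5648 to 10437 per single cell. The SFEB values had been corrected by the study for batch. ES cell markers were present at the start of each culture: the sum over 7 markers fell in median from 2111 FPKM at 0-22 h to 274 FPKM at 126-216 h in SFEB populations, while the sum over 6 neural progenitor markers rose from 32.0 to 661 FPKM and that of 9 neuron markers from 196 to 612 FPKM. A list of 10 fibroblast markers was also present early, although by the study's methods the R1 cells had been passaged without feeder cells before induction. Their sum ranged from 140 to 1004 FPKM at 0-22 h and from 21.4 to 75.0 FPKM at 34-60 h in SFEB populations, and from 149 to 434 FPKM at 0-22 h in adherent culture. In bulk samples, fewer cells of a type and less RNA per cell cannot be told apart.

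Every one of the 46 genes was expressed in every population sample. Pcna was the most abundant at a median of 403 FPKM over the 22 SFEB populations, and Mcm8, a relative of the helicase subunits that serves in recombination, the least at 8.89 FPKM. The helicase subunits Mcm2 to Mcm7 were all abundant, with medians from 85.7 FPKM (Mcm4) to 207 FPKM (Mcm5). The origin complex was uneven: Orc6 had a median of 62.7 FPKM and Orc3 of 12.97 FPKM. Among polymerase and primase genes Pold2 stood highest (74.4 FPKM) and Pola1 lowest (21.0 FPKM), and among firing factors Gins2 (60.4 FPKM) and Gins3 (9.32 FPKM) marked the ends. Across SFEB samples the highest level of a gene was 1.45 to 4.17 times its lowest, with a median of 2.19 over the 46 genes. Orc1 had the widest range.

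The first question was how the machinery changed between ES cells and late cultures. SFEB populations were compared between 126-216 h (4 samples) and 0-22 h (7 samples) in 1 limma fit over all 22 populations with a term for the series, on log2(FPKM + 1), a scale that understates changes of low genes. Adjusted p-values here are limma's with the Benjamini-Hochberg correction over all genes tested, and a gene was called below 0.05. Of the 46 genes, 14 were lower (30.4%) and 7 higher (15.2%). Among all 13363 genes tested, 30.0% were lower and 37.2% higher, so the share of lower genes was near that of the transcriptome and the share of higher genes was smaller. The median log2 difference was -0.11 over the 46 genes and 0.06 over all genes.

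Licensing factors carried the largest decreases. Orc1, the largest origin complex subunit and an ATPase, ranged from 23.2 to 29.5 FPKM with a median of 28.4 at 0-22 h. It stood at 13.1, 10.2, 14.7 and 7.29 FPKM at 126, 142, 144 and 216 h. All late samples lay below all early ones, and the log2 difference was -1.24 ± 0.14 (SE, adjusted p = 1.1e-07). Cdt1, which brings the helicase to origins, ranged from 103 to 149 FPKM (median 124) early and was at 75.6, 52.6, 76.9 and 41.4 FPKM late. Again the groups did not overlap, with a difference of -1.04 ± 0.15 (adjusted p = 2.1e-06). Orc2 (-0.60) and Orc5 (-0.54) were lower as well. Orc4 went the other way, from a median of 12.1 FPKM (11.5 to 17.9) to 18.6, 19.99, 17.8 and 15.2 FPKM, a difference of 0.40 ± 0.11 (adjusted p = 0.0026). Orc3 (0.21), Orc6 (-0.05), Cdc6 (-0.29) and Gmnn (-0.26) did not pass the test. The 6 subunits of 1 complex were thus split into 3 lower, 1 higher and 2 not called.

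The helicase was lower in 5 of its 6 subunits. Mcm5 ranged from 173 to 253 FPKM early (median 230) and was at 188, 134, 150 and 99.5 FPKM late. Its 126 h value lay within the early range and the other 3 below it, with a difference of -0.63 ± 0.13 (adjusted p = 0.00024). Mcm3 moved from a median of 126 FPKM (116 to 154) to 104, 68.2, 99.1 and 59.7 FPKM, a difference of -0.65 ± 0.12 (adjusted p = 4.4e-05) with no overlap. Mcm2 (-0.61), Mcm6 (-0.35) and Mcm4 (-0.27) were lower by less. The calls of Mcm2, Mcm3 and Mcm5 held in every omission of 1 sample. Those of Mcm4 (-0.16) and Mcm6 (-0.20) were lost without the 216 h sample, and that of Mcm4 also without the 142 h sample (-0.23). Mcm7 was not called: its late values of 213, 160, 160 and 107 FPKM spread around the early median of 156 FPKM, and the difference was 0.00 ± 0.11.

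Firing factors were divided. Mcm10, which helps the helicase start to unwind, had a median of 39.3 FPKM early (32.4 to 51.5) and values of 25.9, 19.8, 26.1 and 14.1 FPKM late, all below the early ones (-0.91 ± 0.14, adjusted p = 9.0e-06). Cdc7, the kinase that phosphorylates the loaded ring, rose from a median of 17.6 FPKM (14.7 to 19.3) to 28.8, 29.1, 27.7 and 20.6 FPKM (0.59 ± 0.09, adjusted p = 1.2e-05). All late Cdc7 values were above all early ones, 216 h included. Its activator Dbf4 had a difference of -0.28 and was not called. Gins2 was higher by 0.36 ± 0.15 (adjusted p = 0.039) with late values of 68.2, 57.0, 48.4 and 28.8 FPKM, the last below the early minimum of 32.8 FPKM. In the parallel series alone the log2 difference was -0.040.

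At the fork, subunits of the same complex also differed. Of polymerase delta, Pold2 fell from a median of 88.9 FPKM (73.1 to 99.4) to 54.2, 37.5, 64.4 and 38.8 FPKM, a difference of -0.89 ± 0.12 (adjusted p = 1.9e-06). Pold3, an accessory subunit of the same enzyme, was higher, with 35.6, 30.5, 29.8 and 18.1 FPKM late against 17.6 to 28.1 FPKM early (0.41 ± 0.14, adjusted p = 0.013). The 216 h value of Pold3 alone lay inside the early range. In the clamp loader, Rfc5 fell to 60.8, 48.9, 69.1 and 37.3 FPKM from a median of 91.9 FPKM (-0.86 ± 0.16, adjusted p = 6.3e-05), and Rfc3 rose to 69.6, 66.2, 54.2 and 38.6 FPKM from a median of 39.9 FPKM (0.50 ± 0.14, adjusted p = 0.0028). Rfc1, Rfc2, Rfc4 and the clamp Pcna were not called, with differences from -0.02 to 0.14. Of RPA, the large and middle subunits Rpa1 (-0.80 ± 0.13, adjusted p = 1.1e-05) and Rpa2 (-0.51) were lower and Rpa3 (0.26) was not called. Both ribonucleotide reductase genes were higher, Rrm1 by 0.44 ± 0.11 (adjusted p = 0.0015) and Rrm2 by 0.28. Fen1 (-0.13) and Lig1 (-0.20) did not pass.

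**Figure D1:**
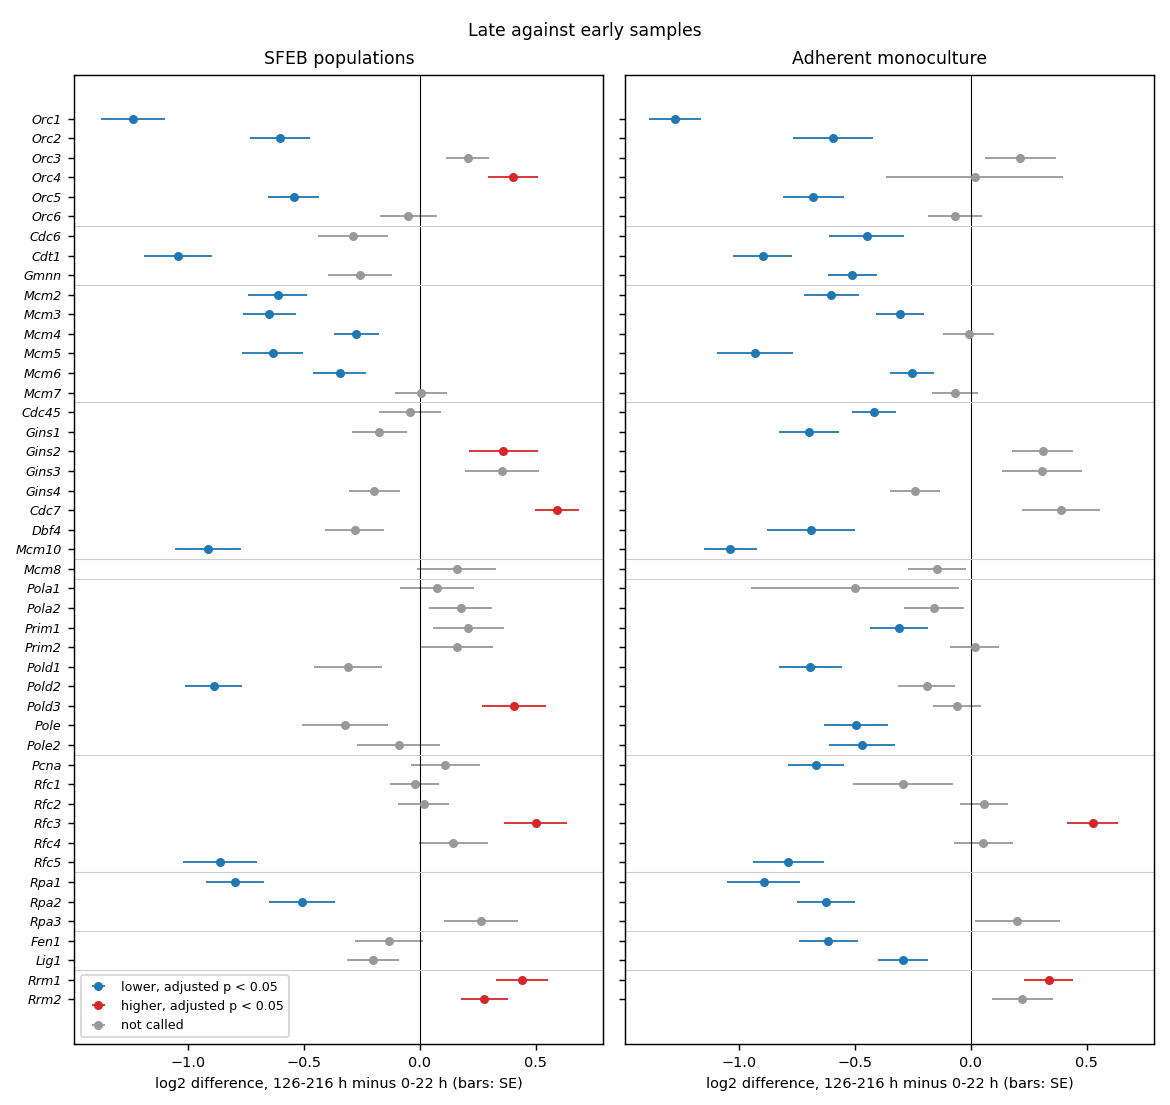
Log2 differences (x axis, log2 of FPKM + 1, 126-216 h minus 0-22 h) of the 46 genes (y axis, grouped by role) in SFEB populations and in adherent monoculture; points are limma estimates, bars their SE, blue lower, red higher and grey not called. Orc1 lies farthest to the left in both panels (-1.24 and -1.27), and Rfc3 and Rrm1 are red in both.

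These calls moved with the series, with single samples and with the scaling. With the first series alone 10 genes were lower and 15 higher, where 25.9% of all genes were lower and 31.9% higher. With the parallel series alone 15 were lower and 0 higher, where 16.1% and 22.1% of all genes were. Centring the samples on their median gave 22 lower and 1 higher, beside 40.8% and 27.9% of all genes. The 216 h sample, present only in the parallel series, had the lowest value of all 22 samples for 33 of the 46 genes (71.7%), where 14.8% of all genes tested had their lowest value. The 46 genes summed to 1752 FPKM in that sample and to between 2595 and 3560 FPKM in the others. The 20 mitosis genes summed to 942 FPKM there and to at least 1257 FPKM elsewhere, and neuron markers to 1156 FPKM, their highest. Whether their change had a part in the low replication genes was not tested. Without the 216 h sample, 12 genes were lower and 15 higher, and 28.5% and 35.7% of all genes. Leaving out the 126 h sample of the first series instead left 4 higher genes. Of the 21 called genes, 16 kept the call whichever single sample was left out.

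**Figure D2:**
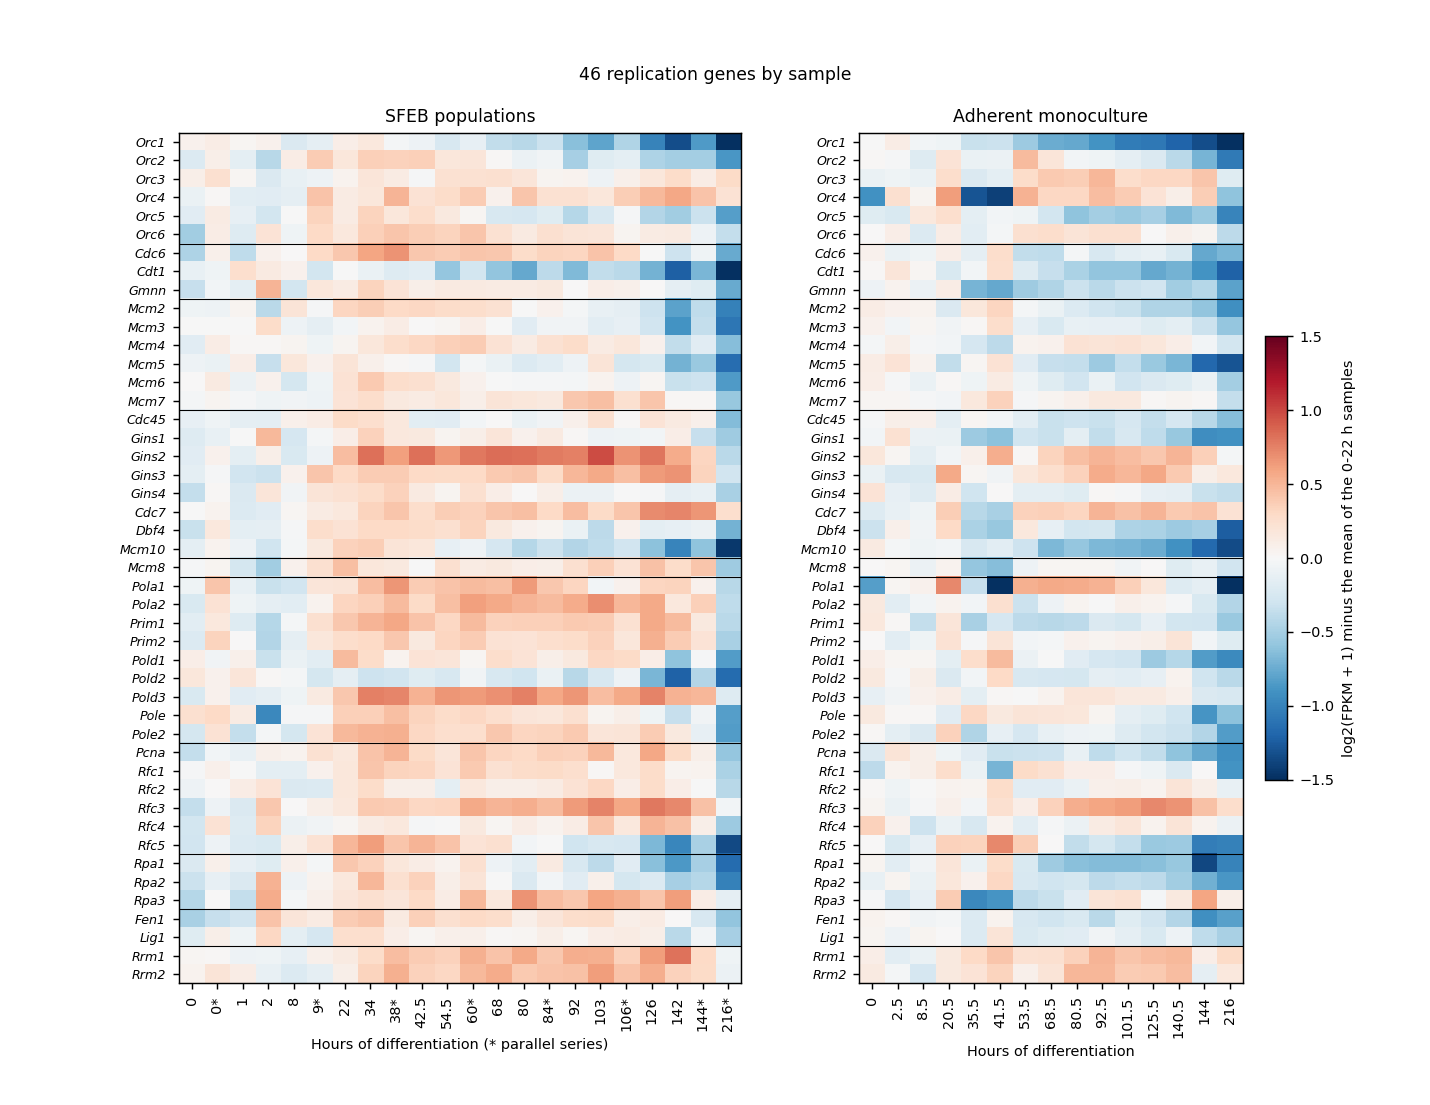
Level of each of the 46 genes (rows, grouped by role) in each SFEB population and each adherent sample (columns, by hours of differentiation; * marks the parallel SFEB series), as log2(FPKM + 1) minus the mean of the 0-22 h samples of the same culture. Colours are cut at 1.5 either way; the 216 h columns are blue for most genes, and 34-60 h columns of SFEB are red for most.

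The second question was whether the machinery moved before the late window. At 34-60 h (5 samples) 17 of the 46 genes were higher than at 0-22 h (37.0%) and 0 were lower, and 42 of the 46 estimates were above 0. Of all genes tested 14.9% were higher and 22.0% lower. The median log2 difference was 0.28 over the 46 genes and -0.03 over all genes. Centring the samples on their median moved the median of all genes to 0.09 and gave 30 higher genes and 0 lower, where 24.3% of all genes were higher. At an unadjusted p below 0.05 there were 25 of the 46 genes (54.3%) and 46.3% of all genes. The mean FPKM of the window was highest at 34-60 h for 26 of the 46 genes (56.5%) and for 19.1% of all genes.

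The rise took in every group of genes except RPA, the lagging strand enzymes and Mcm8. Gins2 had the largest difference: 69.0, 59.6, 69.3, 61.2 and 67.4 FPKM at 34, 38, 42.5, 54.5 and 60 h against 32.8 to 53.6 FPKM early (0.76 ± 0.14, adjusted p = 0.00023), with no overlap. Pold3 followed, with 36.0, 35.5, 30.3, 33.6 and 33.1 FPKM against 17.6 to 28.1 FPKM (0.67 ± 0.13, adjusted p = 0.00035), again without overlap. Of the 4 subunits of polymerase alpha with primase, Pola1 (0.48), Prim1 (0.46) and Pola2 (0.44) were higher, and Prim2 (0.31, adjusted p = 0.097) was not called. Cdc6, the ATPase that joins the origin complex in loading the helicase, was at 28.8, 30.5, 25.3, 24.8 and 25.5 FPKM against 13.4 to 25.2 FPKM (0.49 ± 0.14, adjusted p = 0.0094). In that gene the highest early sample, 22 h, reached the level of the later ones. Of the clamp and loader, Rfc5 (0.44), Rfc3 (0.41), Pcna (0.38) and Rfc1 (0.34) were higher, and of the helicase Mcm2 (0.31) and Mcm4 (0.30). Rrm1 and Rrm2 (both 0.41), Orc6 (0.37), Cdc7 (0.35) and Orc4 (0.30) completed the 17. Cdt1 (-0.26) and Pold2 (-0.22) had the most negative estimates and were not called.

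Both SFEB comparisons share the 0-22 h samples. Mcm2, Mcm4 and Rfc5 were higher at 34-60 h and lower at 126-216 h. None of them kept both calls in every omission of 1 sample. The call at 34-60 h was lost in 9 of 22 omissions for Mcm2 and in 2 of 22 for Rfc5. The late call of Mcm4 was lost in 2 of 22. Rfc5 showed the widest swing, with a median of 91.9 FPKM early, values of 151, 130, 139, 131 and 112 FPKM at 34-60 h and of 37.3 to 69.1 FPKM late. Orc4, Gins2, Cdc7, Pold3, Rfc3, Rrm1 and Rrm2 were higher in both windows. Beside the rise at 34-60 h, the sum of the 10 fibroblast markers had fallen from a median of 648 to 40.9 FPKM, and 9 of the 10 were called lower. The part of this change in the rise was not tested. The 2 h sample of the first series stood apart within the early window for several genes, with Pole at 10.4 FPKM where the other 6 had 20.9 to 27.4 FPKM, and Rpa2 at 75.3 FPKM where they had 41.3 to 57.9 FPKM. In the first series alone 14 genes were higher, as were 10.3% of all genes. In the parallel series alone, with 2 samples in each window, 0 were, near the 0.974% of all genes.

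**Figure D3:**
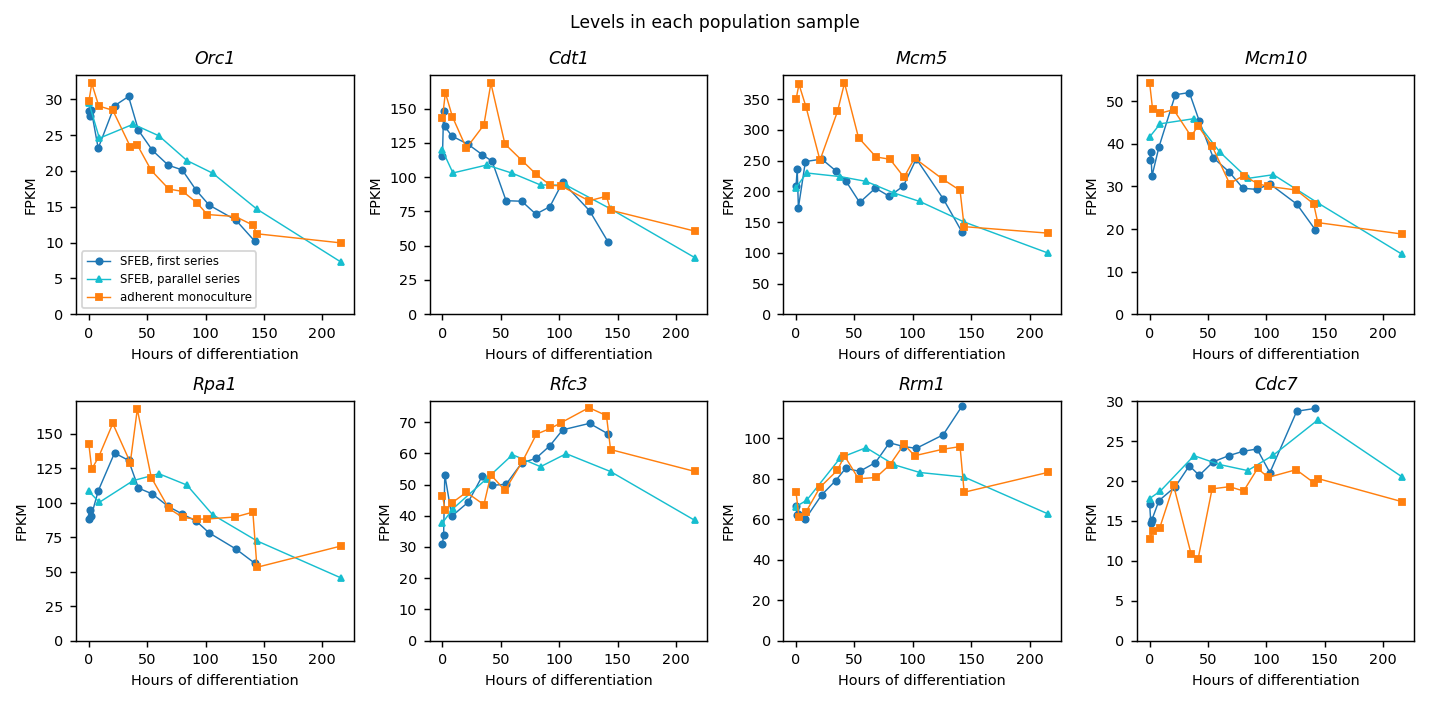
FPKM (y axis, from 0) of 8 genes in each population sample against hours of differentiation (x axis); circles are the first SFEB series, triangles the parallel SFEB series and squares adherent monoculture, each point 1 sample. Orc1, Cdt1, Mcm5, Mcm10 and Rpa1 end below their start in all 3 series, while Rfc3 and Rrm1 climb and fall back at 216 h in the parallel series.

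The adherent culture gave the same comparison in a second protocol and a separately made table. Between 126-216 h (4 samples, the 125.5 h sample counted here) and 0-22 h (4 samples), 24 of the 46 genes were lower (52.2%) and 2 higher (4.35%). Of all 12879 genes tested, 25.3% were lower and 35.5% higher. The median log2 difference was -0.30 over the 46 genes and 0.10 over all genes. Markers moved alongside: from 0-22 h to 126-216 h the median sum of the ES cell markers went from 2044 to 366 FPKM, of the neural progenitor markers from 26.6 to 419 FPKM, of the neuron markers from 294 to 570 FPKM (1278 FPKM at 216 h) and of the fibroblast markers from 368 to 57.4 FPKM. Their part in the lower replication genes was not tested.

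The loading factors Cdt1 and Cdc6 were lower here, as was Gmnn, which holds Cdt1 back. Orc1 stood at 29.7, 32.2, 29.1 and 28.5 FPKM at 0, 2.5, 8.5 and 20.5 h and at 13.6, 12.4, 11.2 and 9.96 FPKM at 125.5, 140.5, 144 and 216 h (-1.27 ± 0.11, adjusted p = 2.4e-07). Cdt1 went from 143, 162, 144 and 121 FPKM to 82.8, 86.1, 76.0 and 60.7 FPKM (-0.90 ± 0.13, adjusted p = 2.3e-05). In both genes every late sample was below every early one. Gmnn (-0.51) and Cdc6 (-0.45) joined Cdt1, and Orc5 (-0.68) and Orc2 (-0.59) joined Orc1. Mcm5 was the helicase subunit with the largest decrease, from 350, 374, 338 and 251 FPKM to 220, 202, 143 and 132 FPKM (-0.93 ± 0.16, adjusted p = 0.00016). Mcm2 (-0.60), Mcm3 (-0.31) and Mcm6 (-0.25) were lower, and Mcm7 (-0.07) and Mcm4 (-0.01) were not called.

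Mcm10 had the second largest decrease of the 46, from 54.3, 48.2, 47.1 and 48.0 FPKM to 29.2, 25.9, 21.5 and 18.8 FPKM (-1.04 ± 0.11, adjusted p = 2.1e-06). Gins1 (-0.70), Dbf4 (-0.69) and Cdc45 (-0.42) were the other firing factors that fell. At the fork the list was longer than in SFEB: Pold1 (-0.69), the catalytic subunit of polymerase delta, Pole (-0.49) and Pole2 (-0.47) of polymerase epsilon, Prim1 (-0.31), Pcna (-0.67), Rfc5 (-0.79), Fen1 (-0.61) and Lig1 (-0.29) were all lower. Pcna, the most abundant of them, went from 428, 567, 529 and 475 FPKM to 383, 327, 291 and 263 FPKM (adjusted p = 0.00021). Rpa1 was at 142, 124, 133 and 157 FPKM early and at 89.7, 93.2, 53.2 and 68.6 FPKM late (-0.89 ± 0.16, adjusted p = 0.00015), and Rpa2 was lower too (-0.62).

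Rfc3 and Rrm1 were the 2 higher genes. Rfc3 rose from 46.3, 41.7, 44.3 and 47.5 FPKM to 74.7, 72.1, 61.2 and 54.2 FPKM (0.53 ± 0.11, adjusted p = 0.00067), without overlap. Rrm1 rose from 73.3, 60.9, 63.6 and 75.8 FPKM to 94.6, 95.9, 73.4 and 83.2 FPKM (0.34 ± 0.11, adjusted p = 0.012), where the 144 h value stayed inside the early range. Centring the samples on their median moved the median of all genes from 0.10 to -0.15, and then 32 genes were lower and 0 higher, beside 36.7% and 25.9% of all genes. In SFEB the same step moved it from 0.06 to -0.16. Under that scaling the call of a higher Rfc3 or Rrm1 in adherent culture was lost. Leaving out the 20.5, 41.5, 53.5 or 216 h sample in turn gave 4 higher genes each. The lowest value of all 15 samples fell at 216 h for 27 of the 46 genes (58.7%), against 12.7% of all genes. Without the 216 h sample 19 genes were lower, as were 23.3% of all genes. Without both the 144 and 216 h samples 16 were, and 22.97% of all genes.

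At 34-60 h (3 samples) the higher calls seen in SFEB were not seen in adherent culture. No gene was higher, 4 were lower (8.70%), and the median log2 difference was -0.04 over the 46 genes and -0.09 over all genes, of which 6.79% were lower and 3.82% higher. Quantile normalization turned this to 1 lower and 2 higher, where 3.42% and 5.80% of all genes were. Centring gave 2 lower and 1 higher, where 3.07% and 6.17% of all genes were, so that under both scalings the counts were near the shares of all genes. The sum of the fibroblast markers went from a median of 368 to 116 FPKM in the same interval, with 7 of 10 called lower, and its part was not tested. The lower genes were Rpa3 (-0.75 ± 0.20, adjusted p = 0.027), Gmnn (-0.66), Gins1 (-0.49) and Orc1 (-0.40). Gmnn stood at 35.8, 34.1 and 40.2 FPKM at 35.5, 41.5 and 53.5 h against 55.2 to 63.5 FPKM early. The 46 genes summed to 3455, 3856 and 3323 FPKM at 35.5, 41.5 and 53.5 h, where the early samples had 3522 to 3668 FPKM. The 41.5 h sum was the largest of all adherent samples, and 17 of the 46 genes had their highest value there. The mean FPKM of the window was highest at 34-60 h for 13 of the 46 genes. Shares of all genes were not counted for these. The difference between the protocols was not tested, since their tables were made separately. Some samples stood apart: Orc4 was at 4.1, 2.92 and 2.64 FPKM at 0, 35.5 and 41.5 h and at 5.33 FPKM at 216 h, where every other sample had 8.89 to 13.9 FPKM, and Pola1 was low at 6.76, 9.81, 3.72 and 2.84 FPKM in the same 4. Without the 0, 35.5 and 41.5 h samples, late 22 genes were lower and 4 higher, beside 25.8% and 36.02% of all genes. At 34-60 h that omission left only the 53.5 h sample, assumed to vary like the other windows, and gave 0 lower genes, which with 1 sample says little about the 4. Leaving out the 0, 35.5 or 41.5 h sample alone left 1 lower gene at 34-60 h, and the 2.5 or 20.5 h sample 2.

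The late calls of the protocols met in 14 genes. Orc1, Orc2, Orc5, Cdt1, Mcm2, Mcm3, Mcm5, Mcm6, Mcm10, Rfc5, Rpa1 and Rpa2 were lower in both, which is 12 of 14 lower genes in SFEB (85.7%) and 12 of 24 in adherent culture. Over all genes tested in both tables, 70.8% of those lower in SFEB were lower in adherent culture, and 82.5% the other way round. Of the 46 genes 26.1% were thus lower in both, and of all 12706 genes 20.8%. Rfc3 and Rrm1 were higher in both (4.35%), as were 29.3% of all genes. The genes called in opposite directions numbered 0 of the 46 and 70 of all. Pold2 and Mcm4 were lower in SFEB and not called in adherent culture, where their estimates were -0.19 and -0.01.

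E14 cells asked about genotype and an earlier time. Fyn itself was at 3.21, 2.74 and 4.00 FPKM in wild type and at 0.60, 0.60 and 1.10 FPKM in Fyn-KO samples at day 0. At day 4 it was at 9.44, 4.54 and 6.76 FPKM in wild type and at 1.19, 1.13 and 1.58 FPKM in Fyn-KO, lower in every knockout library. The wild type day 4 libraries were uneven in progress: the 6 neural progenitor markers summed to 182 FPKM in replicate 1 and to 23.3 and 50.6 FPKM in the others, while Fyn-KO day 4 libraries had 17.6, 10.1 and 31.2 FPKM. All results below come from 1 limma fit of the 12 libraries.

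From day 0 to day 4, wild type cells lowered 7 of the 46 genes (15.2%) and raised 0, and Fyn-KO cells lowered 8 (17.4%) and raised 1. Of all 12257 genes tested, 10.3% were lower and 15.5% higher in wild type, and 7.56% were lower and 11.8% higher in Fyn-KO. The sum of the ES cell markers went in median from 4204 to 1832 FPKM in wild type and from 4032 to 1990 FPKM in Fyn-KO over the same days, and its part was not tested. Orc1, Cdt1, Mcm5, Mcm10, Rpa1, Lig1 and Rrm2 were lower in both genotypes. Mcm5 was at 213, 160 and 169 FPKM at day 0 and 130, 88.4 and 112 FPKM at day 4 in wild type (-0.71 ± 0.15, adjusted p = 0.0062). In Fyn-KO it was at 128, 134 and 124 FPKM and then 79.1, 71.9 and 71.3 FPKM (-0.79 ± 0.15, adjusted p = 0.0050). Days did not overlap in either genotype.

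Cdt1 moved from 107, 98.0 and 110 FPKM to 63.1, 68.0 and 87.2 FPKM in wild type (-0.54 ± 0.15, adjusted p = 0.020) and from 94.7, 97.2 and 96.8 FPKM to 46.6, 63.9 and 59.6 FPKM in Fyn-KO (-0.77 ± 0.15, adjusted p = 0.0050). Lig1, the ligase that seals Okazaki fragments, went from 101, 87.0 and 94.5 FPKM to 62.3, 55.0 and 70.1 FPKM in wild type (-0.59) and from 96.8, 95.5 and 90.6 FPKM to 44.8, 56.2 and 58.5 FPKM in Fyn-KO (-0.82). Rrm2, the small subunit of ribonucleotide reductase, had the largest decrease in Fyn-KO, from 145, 145 and 146 FPKM to 86.5, 74.2 and 60.5 FPKM (-0.99 ± 0.19, adjusted p = 0.0057), with -0.68 in wild type. In SFEB populations Rrm2 had been called higher late, a call lost without the 126 h sample (0.18), without the 142 h sample (0.25) and in the parallel series alone (0.065). The contrast with E14 was not tested. In Fyn-KO, Pole (-0.63) was also called lower and Cdc7 (0.60 ± 0.19, adjusted p = 0.046) higher, with estimates of -0.14 and 0.41 in wild type, not called. The genotypes were not shown to differ in these changes: the interaction was -0.49 ± 0.22 for Pole and 0.19 ± 0.27 for Cdc7, both with an adjusted p of 0.997. The Cdc7 call was lost under 6 other settings and in 8 of 12 analyses that each left out 1 library. Without Fyn-KO day 0 replicate 1 or 2, or Fyn-KO day 4 replicate 3, 5 genes were lower in Fyn-KO. Without wild type day 4 replicate 1, 5 were lower in wild type.

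Of the 46 genes, 5 (Orc1, Cdt1, Mcm5, Mcm10 and Rpa1, 10.9%) were lower in all 4 population comparisons of later with earlier cells, namely SFEB and adherent R1 cells at 126-216 h and both E14 genotypes at day 4. Of the 11134 genes tested in every table, 3.42% were lower in all 4. The count of the 46 genes higher in all 4 was 0, against 5.21% of all genes. In both R1 cultures the 5 kept their call whichever single sample was left out. In E14 only Mcm5 of the 5 did so in both genotypes: the call was lost in some omissions for Cdt1 (3 of 12) and Mcm10 (4 of 12) in wild type, and for Orc1 (9 of 12) and Rpa1 (4 of 12) in Fyn-KO. SFEB and adherent cells share no samples with each other or with E14, while the 2 genotypes were estimated in a common fit.

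The genotypes were compared next. No gene of the 46 differed between Fyn-KO and wild type by limma at day 0 or day 4. Among all genes, 0.131% were lower and 0.0408% higher at day 0, and 0.0653% and 0.00816% at day 4. At an unadjusted p below 0.05 there were 12 of the 46 genes at each day (26.1%), and among all genes 14.6% at day 0 and 12.1% at day 4. The smallest adjusted p was that of Rpa1 at day 0 (0.105) and of Orc6 at day 4 (0.116). Fitting the replicate number as a block also gave 0 called genes. The interaction of genotype and day gave 0 genes, with 0.00% of all genes called in either direction, and at an unadjusted p below 0.05 it gave 1 (2.17%), Pole (-0.49 ± 0.22), and 4.38% of all genes.

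The values below are therefore a description. Helicase loading genes were lower in all 3 Fyn-KO libraries than in all 3 wild type libraries for Mcm2, Mcm3, Mcm5, Mcm6, Orc6 and Cdc6 on both days, as was Rpa1. Orc6 was at 38.4, 38.9 and 39.4 FPKM in Fyn-KO and 54.7, 53 and 54.6 FPKM in wild type at day 0 (-0.46 ± 0.12), and at 39.2, 30.3 and 29.8 FPKM against 47.9, 52.4 and 45.6 FPKM at day 4 (-0.55 ± 0.12). Mcm3 was at 127, 135 and 142 FPKM against 215, 179 and 144 FPKM at day 0 and at 100, 102 and 95.3 FPKM against 161, 155 and 117 FPKM at day 4. Mcm4 and Mcm7 of the same ring overlapped between genotypes, with differences of -0.03 and 0.09 at day 0. Orc5, Dbf4 and Mcm8 were higher in all Fyn-KO libraries on both days, Orc5 with 32.2, 32.4 and 42.3 FPKM against 25.9, 25.7 and 24.7 FPKM at day 0. In all, 9 of the 46 genes were lower without overlap at day 0 and 8 at day 4, or 19.6% and 17.4%, where 10.9% and 9.99% of all genes were. Higher without overlap were 7 and 4, or 15.2% and 8.70%, where 10.5% and 6.54% of all genes were. On both days 7 of the 46 genes were lower without overlap (15.2%) and 3 higher (6.52%), where 3.70% and 1.67% of all genes were. As Fyn-KO is 1 clone, the clone and the genotype cannot be told apart.

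**Figure D4:**
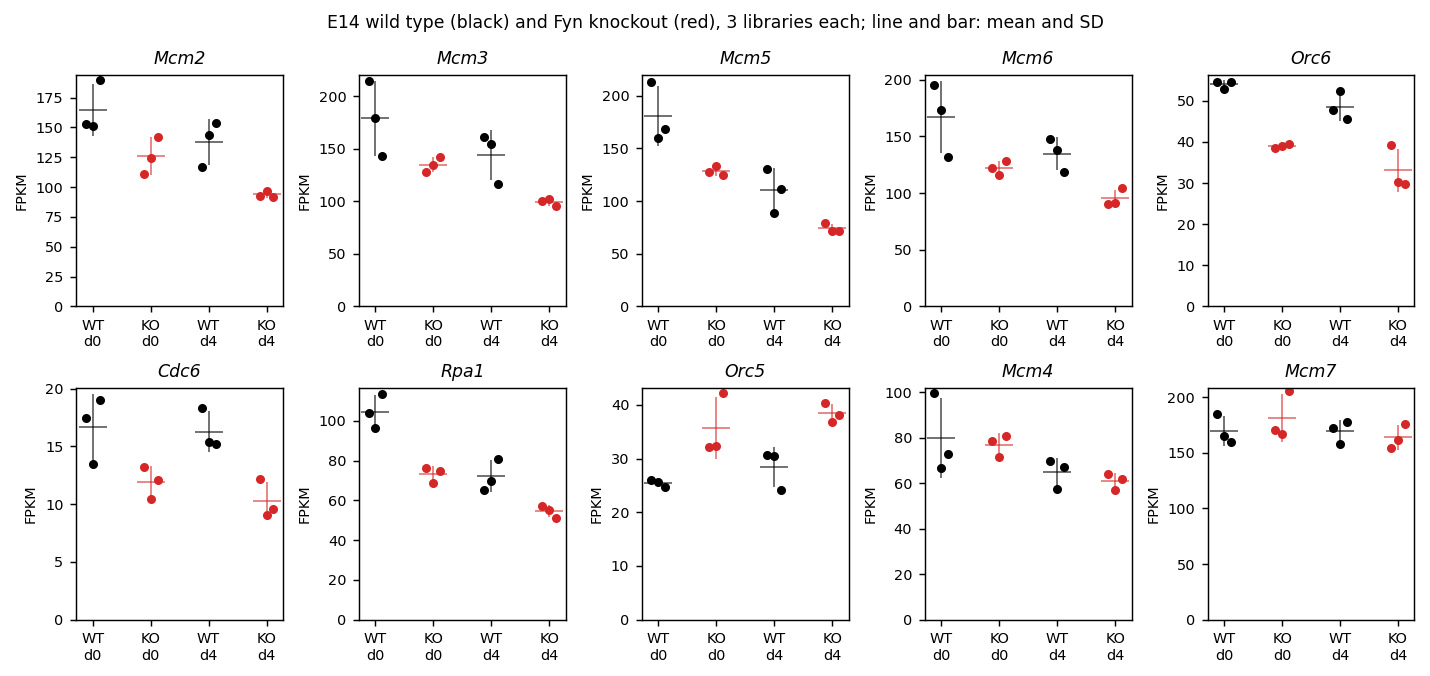
FPKM (y axis, from 0) of 10 genes in each E14 library, wild type in black and Fyn-KO in red at days 0 and 4 (x axis); points are the 3 libraries of a group, the horizontal line their mean and the bar their SD. For Mcm2, Mcm3, Mcm5, Mcm6, Orc6, Cdc6 and Rpa1 the red points lie below the black ones of the same day, for Orc5 above, and for Mcm4 and Mcm7 they overlap.

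Single cells were read as log2(RPKM + 1), with the mean of 8 cells taken at each of 8 times and a slope fitted over those 8 means, since the labels do not tie the cells of 1 time to separate cultures. Of the 46 genes 4 had a negative slope by limma (8.70%) and 0 a positive one, against 1.07% and 1.67% of 11449 genes. The median slope was -0.47 log2 units per 100 h over the 46 genes and 0.00 over all genes, and 38 of 46 slopes were below 0. The cells had been quantile-normalized by the study, and the genes above 0 per cell still differed as given above. Medians were 8972 at 0 h, 6927 at 9 h, 8835.5 at 60 h, 7270 at 106 h, 6145 at 144 h and 7951.5 at 216 h. The part of this in the slopes was not tested.

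The 4 genes were Mcm5 (-2.07 ± 0.43 per 100 h, adjusted p = 0.0096), Rpa1 (-2.06 ± 0.48, adjusted p = 0.019), Rfc5 (-1.95 ± 0.47, adjusted p = 0.021) and Cdt1 (-1.73 ± 0.44, adjusted p = 0.030). All 4 were among the 12 genes lower late in both R1 population cultures. Mcm5 had means of 8.43, 8.18, 8.60 and 8.84 at 0, 9, 38 and 60 h and of 7.38, 5.46, 6.72 and 4.05 at 84, 106, 144 and 216 h. Cdt1 stayed between 8.73 and 9.50 through 60 h and between 5.87 and 6.39 from 84 h on, a step more than a slope. Its spread among cells widened as well: the SD over 8 cells was 0.617 to 0.983 up to 60 h and 2.11 to 2.88 from 84 h. Individual late cells kept high levels, such as a cell of 144 h with Cdt1 at 11.02, above every earlier cell. At 216 h cell 16 had Mcm5 at 8.86, where the other cells of that time had 1.42 to 4.93. The paper describes cell 16 as an outlier left at the original stage. Orc1, the gene with the largest late decrease in both R1 population cultures, had means from 5.01 at 0 h to 0.31 at 144 h and 2.07 at 216 h, and was not called (slope -1.33 ± 0.50, adjusted p = 0.15).

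**Figure D5:**
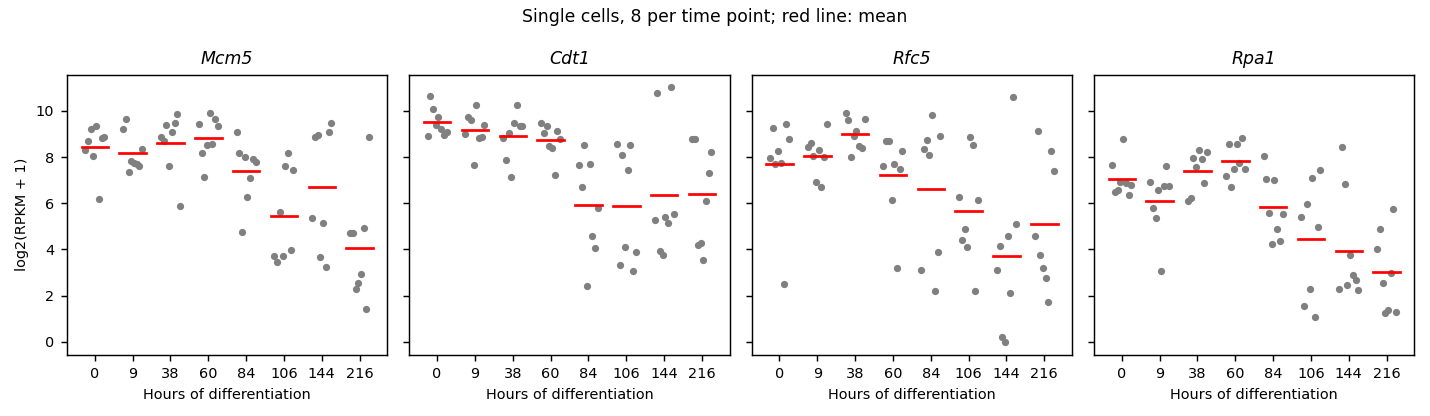
log2(RPKM + 1) of Mcm5, Cdt1, Rfc5 and Rpa1 (y axis) in each of 8 cells (grey points) at each of 8 times (x axis, hours of differentiation, evenly spaced), with the mean in red. Cdt1 means lie between 8.73 and 9.50 up to 60 h and between 5.87 and 6.39 from 84 h, and late cells spread widely.

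The cell result was fragile. Leaving out all cells of 1 time left 2 called genes (without 106 h), 1 (without 60 or 84 h) or 0 (without 0, 9, 38, 144 or 216 h), and the log of the mean RPKM in place of the mean log gave 0. Calls over all genes became fewer as well. Lower were 0.454% of all genes without 106 h, 0.314% without 60 h and 0.253% without 84 h. In the other omissions 0% to 0.0699% were lower, and with the log of the mean 0.0961%. With all cells kept but cell 16 of 216 h, which the study named as standing apart, 5 genes were called, all lower. Of all genes 1.56% were then lower and 2.70% higher. Cells with a value above 0 numbered from 45 of 64 (Orc4) to 64 of 64, and between 37 and 46 of the 46 genes were above 0 in a cell. Within times, the median correlation between 2 of the 46 genes over 64 cells was 0.04 (1035 pairs), and between 2 helicase subunits 0.16 (15 pairs, -0.21 to 0.47), as descriptions of cells prepared by 1 method. Over all genes above 0 in more than 0.5 of the cells the median was -0.0046. The mean level of the 46 genes had an r of 0.21 with the genes above 0 per cell, within times.

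Other cell cycle genes set the frame. Of 31 further replication genes tested in R1 populations, 6 were lower and 4 higher late in SFEB, 3 lower and 12 higher at 34-60 h in SFEB, and 13 lower and 2 higher late in adherent culture. Of all genes, 30.0% were lower and 37.2% higher late in SFEB, and 22.0% and 14.9% at 34-60 h. Late in adherent culture 25.3% of all genes were lower and 35.5% higher. In SFEB at 34-60 h the largest differences were Dscc1 (0.92), a loader subunit that serves cohesion, and Pold4 (-1.40), the smallest subunit of polymerase delta. Pole4 (-0.89) and Chtf18 (-0.86) led the SFEB decreases late, and Chtf18 (-1.41) and E2f8 (-1.02) the adherent ones. In E14 cells 6 of 32 were lower and 1 higher in wild type and 8 and 1 in Fyn-KO, with Ticrr (-1.59), a firing factor, and Uhrf1 (-1.02), which guides maintenance methylation at forks, lowest in wild type. Of all genes, 10.3% were lower and 15.5% higher in wild type, and 7.56% and 11.8% in Fyn-KO. In single cells 0 of 30 were called, where 1.07% of all genes were lower and 1.67% higher. Of 20 mitosis genes, 10 were lower and 1 higher late in SFEB, led by Cdc20 (-0.77) and Aurka (-0.74), while at 34-60 h 1 was lower and 1 higher. The shares of all genes to set beside the mitosis counts are those just given for each comparison. Late in adherent culture 7 were lower and 0 higher, led by Birc5 (-0.62) and Ccnb1 (-0.58). In single cells 2 of 20 were lower, Cdc20 (-2.14 per 100 h) and Ube2c (-1.58), a share of about the size of the 4 of 46 replication genes. In E14 cells 2 of 20 were lower (Birc5 and Ube2c) and 1 higher (Bub1, 0.53) in wild type, and 1 lower (Birc5, -0.66) and 1 higher (Bub1, 0.69) in Fyn-KO.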

How the data were processed

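RNA was sequenced in 37 R1 populations, 64 single R1 cells and 12 E14 populations. Libraries were Nextera XT on HiSeq2000, 100 bp single-end by the study's methods. The submitters' processing notes name TopHat2 2.0.8b, Cufflinks 2.1.1 and the builds mm9 (R1) and mm10 (E14), while the methods name other versions of these tools. The authors deposited FPKM for adherent and E14 samples. The SFEB population table, also FPKM, had been corrected by the authors for batch, and 1256 of its values, none in the 46 genes, were below 0 and were set to 0 here. Single-cell values were deposited as log10(RPKM + 1) after quantile normalization by the authors, and were rescaled to log2. Sample columns left unused numbered 0. Reads could not be recovered, so no count test was run.

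Genes that reached 1 FPKM in 3 or more samples were tested on log2(FPKM + 1) with limma 3.58.1 in R 4.3.3 (trended), with Benjamini-Hochberg adjustment over all genes tested and a threshold of 0.05. All 46 genes passed the filter in every population table. SFEB fits held 4 windows (0-22, 34-60, 68-106 and 126-216 h) and a series term. Each time point is 1 library, so the samples of a window, not repeats, give the spread. Nothing says that same-group E14 samples came from separate cultures, so p-values measure the spread between these samples, which may be technical. Shared E14 numbers were checked by correlating deviations from group means: 0.20, 0.22 and 0.22 for wild type days, 0.14, 0.26 and 0.24 for genotypes at day 4 (each pair over 0.1, taken as paired), 0.02, 0.09 and 0.00 for Fyn-KO days, and 0.06, 0.34 and -0.11 for genotypes at day 0. In tests on simulated data, log2 changes of 0.5, 1 and 2 were recovered in 38.8%, 91.0% and 100% of genes for the late SFEB comparison (13363 genes), 7.46%, 56.7% and 89.4% for Fyn-KO against wild type at day 4 (12257 genes), and slopes of these sizes in 0%, 0% and 51.5% for single cells (11449 genes).

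The genes and lists were chosen with earlier results of these data known. Values by sample were given for the called genes of largest difference (up to 10), for genes called against the majority, and for the highest and lowest gene of a role. From other lists the 2 largest called differences were named. Others named by value were chosen after their values were seen.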

Additional observations from a re-analysis of the deposited data

Results flagged for a closer look

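Of 15 groups of 4 to 10 samples examined with Dixon's test, 1 held a sample far from the others, and chance alone flags about 1 in 20. In adherent culture at 0-22 h (n = 4) the 8.5 h sample had a median log2(FPKM + 1) of 5.53 over the 46 genes, while the other 3 lay at 5.68 or above, so that its gap was 0.842 of the range of the window.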

How the results depend on the processing

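The pseudocount of 0.1, the 2 other filters and dropping the series term changed no count of called genes by over 1.5 times, apart from the call of Cdc7 in Fyn-KO, lost under both filters. Late in SFEB populations, centring samples on the median gave 22 lower and 1 higher genes, the first series alone 15 higher, the parallel series alone 0 higher, a straight line on time 4 higher, and omission of the 216 h sample 15 higher. Gins2, higher late in SFEB, had a log2 difference of -0.040 in the parallel series only. At 34-60 h in SFEB, centring gave 30 higher genes and the parallel series alone 0. Late in adherent culture the 2 higher genes became 4 with quantile normalization, 0 with centring, and 4 without the 216 h sample, without the 0, 35.5 and 41.5 h samples, or without the 144 and 216 h samples, the last pair of omissions chosen after seeing the data. At 34-60 h in adherent culture, quantile normalization gave 1 lower and 2 higher genes, centring 2 and 1, and omission of the 0, 35.5 and 41.5 h samples, which leaves 1 sample in that window, 0 lower. For E14, quantile normalization gave 1 higher gene in wild type. In Fyn-KO the 1 higher gene, Cdc7, became 0 without the filter, with a filter of 0.5 FPKM in 8 samples, with quantile normalization, with centring, with the replicate block, and in a fit of the 2 groups compared. For single cells the log of the mean gave 0 lower genes, beside 0.0961% of all genes. The cause was not tested in any of these.

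Omitting 1 sample at a time gave ranges: late SFEB 12 to 18 lower and 4 to 15 higher, SFEB at 34-60 h 0 to 1 lower and 14 to 22 higher, late adherent 19 to 24 lower and 2 to 4 higher, adherent at 34-60 h 1 to 6 lower and 0 to 1 higher, E14 wild type 5 to 7 lower and 0 to 1 higher, Fyn-KO 5 to 10 lower and 0 to 1 higher, and single cells (1 time at a time) 0 to 2 lower. The higher genes of late SFEB were 4 without 126 h and 15 without 216 h. The lower gene of SFEB at 34-60 h appeared without the 9 h sample, the higher one of adherent culture without 20.5 h, and the higher one of wild type without Fyn-KO day 0 replicate 3. Genes called in every omission were 16 of 21 late and 13 of 17 at 34-60 h in SFEB, 21 of 26 and 1 of 4 (Gmnn) in adherent culture, 4 of 7 in wild type, 5 of 9 in Fyn-KO and 0 of 4 in single cells.

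With the replicate block 7 genes were lower in wild type, 10 lower and 0 higher in Fyn-KO, and 0 were called between genotypes or in the interaction. The pairing rests on the data alone and changed no other call count. Depth could not be read from the tables, and at the sizes seen in single cells simulated slopes were recovered in 51.5% of genes at most.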
